A study of Mus musculus with 20 samples.

Results

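The comparison described here is endurance training in transgenic mice: 5 trained against 5 untrained animals, which are 10 of the 20 skeletal muscle samples of the series. The members were taken from the sample titles, TGT for trained and TGUT for untrained transgenic mice, and the source names give the same groups. Each mouse had 1 Affymetrix 3' expression array hybridised with biotin-labelled total RNA. The title of the series says that the transgenic animals over-express MHC-I. The other 10 samples are trained and untrained wild-type mice, 5 of each. No wild-type array enters the transgenic means. All 20 arrays share 1 estimate of the spread, however, so the wild-type arrays enter every SE and limma p given here. The labels do not spell out MHC-I, and they give no promoter, construct, strain, muscle, sex, age, training protocol or time between the last session and sampling. A free-text description attached to every sample calls it transgenic and trained, wild-type and untrained samples included, and was not used.

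Endurance training is known in muscle for raising mitochondrial content. The nuclear genome encodes most subunits of the respiratory chain (complexes I to IV) and of ATP synthase (complex V), and the coactivator Ppargc1a with the nuclear receptor Esrra and the factors NRF1 and GABPA acts on many of these genes. Muscle protein is broken down by the proteasome and by autophagy, with Foxo factors and glucocorticoids as known inducers of the ligases and inhibitors involved. MHC-I can mean the class I major histocompatibility complex, whose over-expression in muscle is used as a model of myositis, or the slow myosin heavy chain.

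The 10 arrays hold deposited intensities, a linear brightness per probe set, from 0 to 18926, with array medians between 159.8 and 174.9. Correlations between pairs of these arrays ran from 0.933 to 0.988. Skeletal muscle transcripts were at the top of the range: Acta1, the sarcomeric actin, averaged 17987 ± 442 (SD, n = 5) in untrained and 18220 ± 343 in trained mice. An array stands apart from its label. On the first principal component, which held 40.5% of the variance between the 10 arrays, trained mice averaged 9.05 ± 5.5 (SD, n = 5) and untrained mice -9.05 ± 15.7 (exact permutation test, two-sided p = 0.0397, smallest possible 0.00794). The untrained mouse TGUT-145 lay at 13.9, inside the trained range of 1.4 to 14.5, while the other untrained mice lay between -25.6 and -5.19. The trained mouse TGT-133 had 386 empty cells against 8 to 21 in the other trained and 11 to 83 in the untrained mice. Where leaving out TGUT-145 changes the call of a gene whose difference is given here, its value without that mouse is given too. Genes named only as members of a list carry no such values. The count of calls is also given without TGT-133. TGUT-145 was singled out after its place among the trained arrays was seen. It was also the untrained mouse nearest the trained mean in 21 of the 25 genes called below. Leaving it out therefore tends to enlarge the differences, and calls made without it are no separate support. Fits leaving out another transgenic mouse called 2 to 278 probe sets, against 764 without TGUT-145. The log2 ratio of the Gapdh 3' to 5' control probe sets, which rises as RNA degrades, averaged 0.015 in untrained and 0.01 in trained mice (exact permutation p = 0.889).

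With training, the complex I subunits Ndufb9, Ndufb10 and Ndufa8, the ATP synthase subunit Atp5g1 and the mitochondrial protein Ppif rose in transgenic mice. The protease Htra1, the receptor Acvr1b, the kinase Jak1, the transcription factor Ets2 and the splicing regulator Tra2b fell. Of 13575 probe sets tested with limma, 42 passed an adjusted p of 0.05, which is 0.309%: 18 were higher and 24 lower in trained mice. At an unadjusted p under 0.05 the number was 2362. Of the 42, 36 carry a single gene symbol and stand for 32 genes. Where each gene is read by its brightest probe set, 25 of 8486 genes passed, 11 higher (0.13%) and 14 lower (0.165%). In 19 of the 25 the trained and untrained values did not overlap, against 1.21% of all genes without overlap and higher, and 1.73% without overlap and lower. The 25 were chosen for a difference between these same groups, so little overlap is built in and is no separate support. Of the 25, 7 are read by probe sets that can bind several transcripts. Without TGUT-145, 187 genes were called higher (2.2%) and 270 lower (3.18%), and all 42 probe sets stayed among the 764 called. Quantile normalization gave 91 higher and 57 lower probe sets, and centring on array medians 2 and 9. A fit to the transgenic arrays alone, without the spread of the wild-type arrays, called 0 higher and 1 lower. Changes below are log2 differences after adding 66.7 to each intensity, ± SE, with adjusted p from limma, and single values are intensities.

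**Figure D1:**
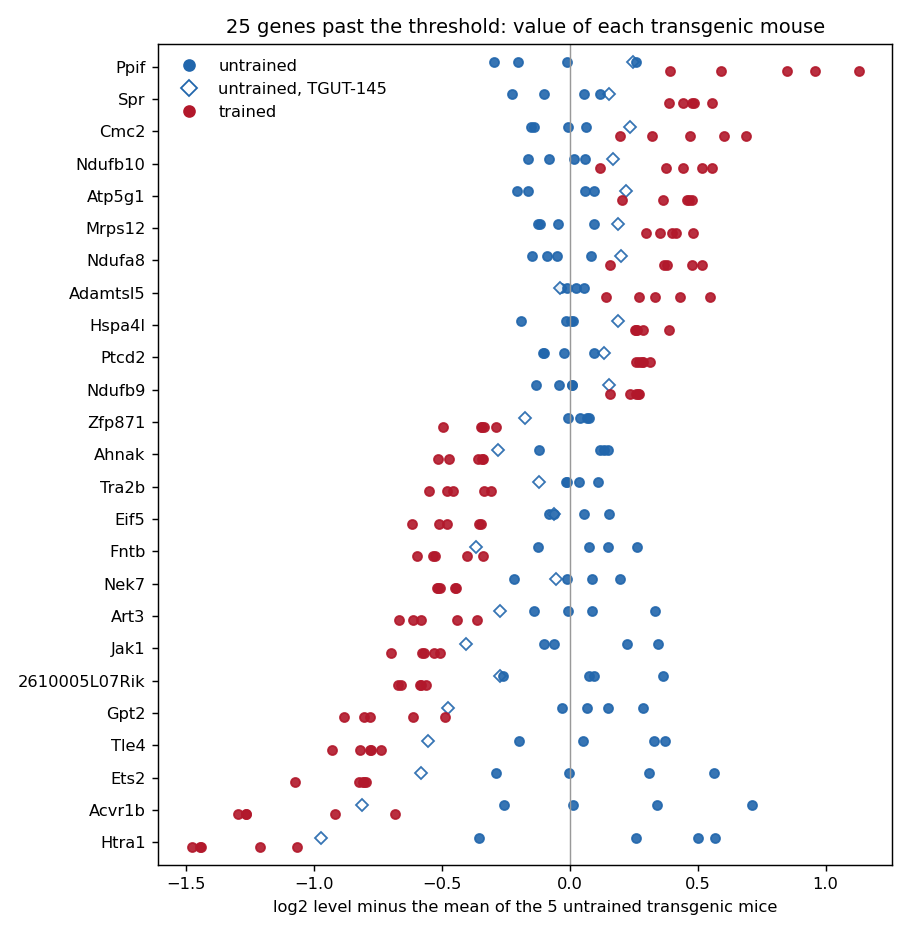
Each row is a gene past the adjusted threshold and each point a transgenic mouse, as its log2 level minus the mean of the 5 untrained mice. Trained mice (red) and untrained mice (blue) separate in 19 of the 25 genes, which were chosen for a difference between these groups. The open diamond, TGUT-145, is the untrained mouse nearest the trained mean in 21 of 25.

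Among the genes that rose, Ndufb9, Ndufb10, Ndufa8, Atp5g1, Cmc2, Mrps12, Ptcd2 and Ppif encode mitochondrial proteins. Values of single mice are given in the order TGUT-131, TGUT-139, TGUT-145, TGUT-146 and TGUT-147, then TGT-128, TGT-132, TGT-133, TGT-140 and TGT-143. Ndufb9, an accessory subunit of complex I, read 5117, 4642, 5675, 4939.5 and 5123 in the untrained mice and 6102, 6159.6, 5678, 6132 and 6006 in the trained mice. No trained mouse fell below an untrained one, although TGT-133 and TGUT-145 were within a few units. Ndufb9 rose by 0.24 ± 0.045 log2 units, or 1.18-fold (adjusted p = 0.0383), and its other probe set rose as well. Ndufb10, another complex I subunit, read 2361, 2072, 2627, 2201 and 2431 in the untrained mice and 3455, 3043, 2538, 3363 and 3189 in the trained mice. Its groups overlapped, with TGUT-145 above TGT-133, and it rose by 0.40 ± 0.08 log2 units, or 1.32-fold (adjusted p = 0.0453). Ndufa8, a complex I subunit in the intermembrane space, rose by 0.38 ± 0.081 log2 units, or 1.3-fold (adjusted p = 0.0497) with means of 2357 ± 242 in untrained and 3087 ± 295 in trained mice (SD, n = 5).

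Atp5g1 encodes a c subunit, which forms the membrane ring of ATP synthase. It read 4537, 3785, 4958, 3672 and 4427 in the untrained mice and 5863, 5952, 4905, 5902 and 5494 in the trained mice. TGUT-145 was the highest untrained mouse and TGT-133 the lowest trained mouse, and these 2 values overlapped. Atp5g1 rose by 0.40 ± 0.072 log2 units, or 1.32-fold (adjusted p = 0.0355). Cmc2, a factor of cytochrome c oxidase biogenesis, rose by 0.46 ± 0.09 log2 units, or 1.37-fold (adjusted p = 0.0451). Mrps12, a protein of the small subunit of the mitochondrial ribosome, rose by 0.39 ± 0.072 log2 units, or 1.31-fold (adjusted p = 0.0355), from 379 ± 43.2 in untrained and 515 ± 27.7 in trained mice with no overlap. Ptcd2, a pentatricopeptide repeat protein of mitochondrial RNA processing, rose by 0.28 ± 0.059 log2 units, or 1.22-fold (adjusted p = 0.0453). In Ptcd2 the 5 trained mice lay close together, between 576 and 601 intensity, above an untrained range of 432 to 522.

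The largest rise among called genes was in Ppif, cyclophilin D, which regulates the mitochondrial permeability transition pore. Ppif read 378, 351, 540.3, 442 and 546 in the untrained mice and 1055, 706, 606, 928 and 855 in the trained mice. Every trained mouse was above every untrained mouse, and the trained values spread widely. Ppif rose by 0.79 ± 0.15 log2 units, or 1.72-fold (adjusted p = 0.0404), and its other probe set, not called, differed in the same direction. Spr, sepiapterin reductase of tetrahydrobiopterin synthesis, read 208, 185, 261, 240.0 and 253 in the untrained mice and 319, 344, 334, 346 and 366 in the trained mice. The trained mice lay within a narrow band above all untrained mice. Spr rose by 0.47 ± 0.066 log2 units, or 1.39-fold (adjusted p = 0.00773), and it was called in all 10 fits that left out a transgenic mouse, the only 1 of the 25 genes to do so. Those fits kept the wild-type arrays. Spr was not called in the fit to the transgenic arrays alone, whose only call was a lower probe set. Hspa4l, a chaperone of the Hsp110 family, rose by 0.29 ± 0.061 log2 units, or 1.22-fold (adjusted p = 0.0453), at a level just above the filter, with means of 117 ± 17.1 in untrained and 158 ± 9.08 in trained mice. Adamtsl5, a secreted protein of the ADAMTS-like family, rose by 0.35 ± 0.064 log2 units, or 1.27-fold (adjusted p = 0.0355).

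Promoter windows are shown for the called genes that hold CCGGAAG, the motif found in the most of these windows, to let a reader see where it lies. The windows come from the RefSeq table of build GRCm38.p6 and run from 250 bases before to 50 bases after the first listed start of each gene, along the gene's strand. Of the 11 genes that rose, 10 matched a window, and 4 of them (40%) held CCGGAAG, the core of the GABPA site, on either strand, against 9.12% of all 27025 windows. The motif stands in capitals. Ppif is on chromosome 14 (chr14:25693920-25694219, plus strand), Spr on chromosome 6 (chr6:85137715-85138014, minus strand), Mrps12 on chromosome 7 (chr7:28741772-28742071, minus strand) and Ptcd2 on chromosome 13 (chr13:99344629-99344928, minus strand).
Ppif: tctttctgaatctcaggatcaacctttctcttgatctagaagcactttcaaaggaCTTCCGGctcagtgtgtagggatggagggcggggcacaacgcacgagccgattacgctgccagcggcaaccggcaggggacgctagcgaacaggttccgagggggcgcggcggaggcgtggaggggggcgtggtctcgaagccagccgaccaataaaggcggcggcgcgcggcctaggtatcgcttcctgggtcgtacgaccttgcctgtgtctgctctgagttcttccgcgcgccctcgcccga
Spr: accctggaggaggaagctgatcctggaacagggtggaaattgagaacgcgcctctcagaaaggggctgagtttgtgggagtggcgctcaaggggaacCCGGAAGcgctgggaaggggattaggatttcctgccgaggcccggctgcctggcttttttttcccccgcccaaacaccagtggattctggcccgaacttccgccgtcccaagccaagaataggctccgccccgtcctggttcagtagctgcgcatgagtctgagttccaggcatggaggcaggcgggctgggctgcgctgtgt
Mrps12: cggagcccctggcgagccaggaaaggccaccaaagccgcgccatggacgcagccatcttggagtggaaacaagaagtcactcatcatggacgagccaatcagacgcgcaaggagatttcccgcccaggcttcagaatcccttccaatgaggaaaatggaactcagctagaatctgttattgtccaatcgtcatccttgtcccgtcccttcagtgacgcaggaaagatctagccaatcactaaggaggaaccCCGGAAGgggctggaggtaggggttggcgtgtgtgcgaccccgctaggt
Ptcd2: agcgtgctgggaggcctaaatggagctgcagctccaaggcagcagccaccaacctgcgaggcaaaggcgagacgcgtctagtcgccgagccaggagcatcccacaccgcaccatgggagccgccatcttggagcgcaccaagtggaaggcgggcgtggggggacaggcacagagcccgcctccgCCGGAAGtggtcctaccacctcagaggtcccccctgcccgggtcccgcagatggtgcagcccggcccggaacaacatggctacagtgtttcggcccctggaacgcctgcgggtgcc
In Ppif the motif is on the opposite strand. GCGCATGC, the core of the NRF1 site, was in 2 of the 10 windows (20%, Cmc2 and Ndufa8) against 2.8% of all windows. AAGGTCA, bound by Esrra, was in 1 of the 10, that of Adamtsl5, against 4.66%. Among the 14 genes that fell, 13 had a window; none held CCGGAAG or AAGGTCA, and 1, Art3 (7.69%), held GCGCATGC. Over the tested respiratory chain and ATP synthase genes, 61 of 73 had a window: 24.6% held CCGGAAG, 16.4% GCGCATGC and 11.5% AAGGTCA. These motifs and TTCNNNGAA, bound by STAT factors (1 of 10 windows, 0 of 13, and 8.47% of all), were searched on both strands. The 4 printed windows held none of the other motifs searched. A match describes letters in the window and is not a binding measurement. The share over all windows covers every gene with a window, not only the tested genes. It is therefore not a matched background, and no excess was tested.

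Of the 25 called genes, Ndufb9, Ndufb10, Ndufa8 and Atp5g1 belong to the lists of respiratory chain and ATP synthase genes. All 33 tested complex I subunits and assembly factors had values above 0 in transgenic mice, with a median of 0.18 log2 (range 0.037 to 0.40) against 0.01 over all 8486 genes; 3 were called and 21 had an unadjusted p under 0.05, against 7.58% of all genes in that direction. All 40 tested genes of complexes II to V were above 0, with a median of 0.18; 1 was called and 27 had an unadjusted p under 0.05. The 2 lists had 15 genes whose groups did not overlap, all higher in trained mice, 7 and 8 in turn, against 1.21% of all genes. Ndufb7, a complex I subunit, differed by 0.32 ± 0.072 log2, adjusted p = 0.0526, and Cox6b1, a subunit of cytochrome c oxidase, by 0.24 ± 0.053 log2, adjusted p = 0.0509; both were chosen after their values were seen. Without TGUT-145 the medians were 0.21 and 0.19, and 15 of 33 and 16 of 40 genes were called higher, against 2.2% of all genes in that fit. Ndufb7 (0.36 ± 0.072, adjusted p = 0.0121) and Cox6b1 (0.25 ± 0.057, adjusted p = 0.0191) were among them. In wild-type mice 32 of 33 complex I genes were above 0, with a median of 0.15 log2. In complexes II to V 38 of 40 were above 0 there, with a median of 0.10. Each list had 17 genes at an unadjusted p under 0.05 in wild-type mice, against 5.2% of all genes in that direction.

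Other mitochondrial lists lay the same way with few or no calls. The tricarboxylic acid cycle had 13 of 13 genes above 0 and a median of 0.14 log2; none was called. Cs, citrate synthase, read 4247, 3972, 4641, 4276 and 4486 in the untrained mice and 5145, 5099, 4697, 4902 and 4896 in the trained mice, without overlap, and differed by 0.19 ± 0.052 log2, adjusted p = 0.0788. Of 58 mitochondrial ribosome genes 50 were above 0, with a median of 0.12; 1, Mrps12, was called. The 6 malate-aspartate shuttle genes were all above 0, and the 2-oxoglutarate carrier Slc25a11 differed by 0.35 ± 0.075 log2, adjusted p = 0.0501, and without TGUT-145 it was called higher (0.39 ± 0.074, adjusted p = 0.00804). Among 14 regulators of mitochondrial genes none was called. Esrra differed by 0.31 ± 0.075 log2, adjusted p = 0.0649, from 715 ± 67.2 in untrained and 904 ± 97.8 in trained mice with no overlap, and Ppargc1a by 0.34 ± 0.37 log2, adjusted p = 0.723. Gabpa, the DNA-binding subunit of GABP, differed the other way, by -0.30 ± 0.11 log2, adjusted p = 0.141. Without TGUT-145 Esrra was called higher (0.34 ± 0.078, adjusted p = 0.0193), as was Cs (0.22 ± 0.053, adjusted p = 0.0245); Gabpa was not (-0.30 ± 0.11, adjusted p = 0.128). In that fit 2 of 13 tricarboxylic acid cycle genes, 10 of 58 mitochondrial ribosome genes, 3 of 6 shuttle genes and 2 of 14 regulators were called higher, against 2.2% of all genes. In wild-type mice 56 of 58 mitochondrial ribosome genes were above 0, with a median of 0.14. Of these 27 had an unadjusted p under 0.05, beside 19 in transgenic mice (5.2% and 7.58% of all genes in that direction). Also in wild-type mice, 11 of 13 tricarboxylic acid cycle genes (median 0.11), 5 of 6 shuttle genes (median 0.19) and 10 of 14 regulators (median 0.074) were above 0.

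The largest fall among called genes was in Htra1, a secreted serine protease that cleaves matrix proteins and binds TGF-beta family ligands. Htra1 read 2346, 2458, 802, 1972 and 1266 in the untrained mice and 561, 670.3, 748, 559 and 545 in the trained mice. All trained mice were below all untrained mice, and TGUT-145 was the lowest untrained mouse, close to the trained range. Htra1 fell by 1.33 ± 0.27 log2 units, or 2.51-fold (adjusted p = 0.0453), and a second Htra1 probe set was called too. Acvr1b, a type I receptor for activin and myostatin, read 1740.2, 1331, 561, 857 and 1047 in the untrained mice and 382, 518, 392, 392 and 619.5 in the trained mice. Only TGT-143 and TGUT-145 crossed between the groups. Acvr1b fell by 1.09 ± 0.22 log2 units, or 2.12-fold (adjusted p = 0.0453); its other tested probe set differed by -0.013 log2. Jak1, the kinase of many cytokine receptors, read 1586, 1453, 915, 1181 and 1145 in the untrained mice and 833, 810.1, 804, 736 and 849 in the trained mice. Its groups did not overlap, it fell by 0.58 ± 0.12 log2 units, or 1.49-fold (adjusted p = 0.0453), and 2 of its 3 tested probe sets were called. Stat3, a transcription factor activated by Jak kinases, was called only on a probe set that is not its brightest and was singled out after its values were seen: it read 845, 831, 549, 791 and 573 in the untrained mice and 427, 462, 471, 455 and 486 in the trained mice, a difference of -0.55 ± 0.11 log2, adjusted p = 0.0453.

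Among transcription regulators, Ets2, an ETS family factor, read 1032, 817, 525, 1242 and 658 in the untrained mice and 443, 433, 354, 439.6 and 440.3 in the trained mice. The groups did not overlap, and the untrained mice spread much more than the trained mice. Ets2 fell by 0.86 ± 0.17 log2 units, or 1.82-fold (adjusted p = 0.0453). Tle4, a Groucho family corepressor, read 713, 557, 343, 459 and 689.6 in the untrained mice and 274, 295, 250.0, 284 and 285 in the trained mice. Again no trained mouse reached the untrained range; Tle4 fell by 0.81 ± 0.17 log2 units, or 1.75-fold (adjusted p = 0.0453). Zfp871, a zinc finger protein, fell by 0.36 ± 0.057 log2 units, or 1.28-fold (adjusted p = 0.0125), from 289 ± 24.5 in untrained and 210.2 ± 14.6 in trained mice without overlap.

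Tra2b, a splicing regulator with SR domains, read 396, 358, 328, 373 and 358 in the untrained mice and 246, 226, 273, 241 and 280.2 in the trained mice on its brightest probe set. The groups did not overlap, and Tra2b fell by 0.43 ± 0.073 log2 units, or 1.34-fold (adjusted p = 0.0251); its other tested probe set was called too, so both of its probe sets fell. Eif5, the initiation factor that activates GTP hydrolysis at the start codon, fell by 0.46 ± 0.093 log2 units, or 1.38-fold (adjusted p = 0.0453), from 1162 ± 88 in untrained and 826 ± 69.9 in trained mice without overlap, and all 4 of its tested probe sets were below 0. Sfpq, a splicing factor of paraspeckles, was called on a probe set that is not its brightest (-0.59 ± 0.11 log2, adjusted p = 0.0355), while its 3 probe sets ranged from -0.59 to 0.058, and was named after its values were seen.

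The remaining called genes that fell were enzymes, a scaffold and a transcript of unknown role. Gpt2, mitochondrial alanine aminotransferase, read 3218, 3759.7, 2191, 3415 and 3008 in the untrained mice and 1729.5, 1758, 2169, 1636 and 1987 in the trained mice. No values crossed, though TGUT-145 lay just above the highest trained mouse, TGT-133. Gpt2 fell by 0.71 ± 0.14 log2 units, or 1.64-fold (adjusted p = 0.0383), and its other 2 probe sets lay below 0. Art3, of the ADP-ribosyltransferase family, fell by 0.53 ± 0.10 log2 units, or 1.45-fold (adjusted p = 0.0355); Nek7, a kinase required for NLRP3 inflammasome assembly, fell by 0.49 ± 0.10 log2 units, or 1.4-fold (adjusted p = 0.0453). Fntb, the beta subunit of farnesyltransferase, fell by 0.48 ± 0.10 log2 units, or 1.39-fold (adjusted p = 0.0453); its groups overlapped. Ahnak, a giant scaffold protein, fell by 0.41 ± 0.083 log2 units, or 1.32-fold (adjusted p = 0.0453), with all 4 probe sets below 0. The transcript 2610005L07Rik fell by 0.61 ± 0.13 log2 units, or 1.53-fold (adjusted p = 0.0453), and its other probe set lay at 0.045.

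Set beside wild-type mice, the genes that rose had values of the same sign in both genotypes, and no difference between genotypes passed the test. All 11 genes that rose were above 0 with training in wild-type mice, 8 with an unadjusted p under 0.05 (5.2% of all genes in that direction), and their median was 0.39 log2 in transgenic and 0.26 in wild-type mice. Of the 14 that fell, 13 were below 0 in wild-type mice, 1 with an unadjusted p under 0.05 (2.89% of all genes), and the medians were -0.55 and -0.10. All 25 were larger in transgenic mice, the genotype in which they were chosen. The test of the difference itself, limma's interaction term, called 0 of 13575 probe sets (395 at an unadjusted p under 0.05; smallest adjusted p 0.9999), also without TGUT-145. Training in wild-type mice called 0 probe sets too (1069 at an unadjusted p under 0.05).

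**Figure D2:**
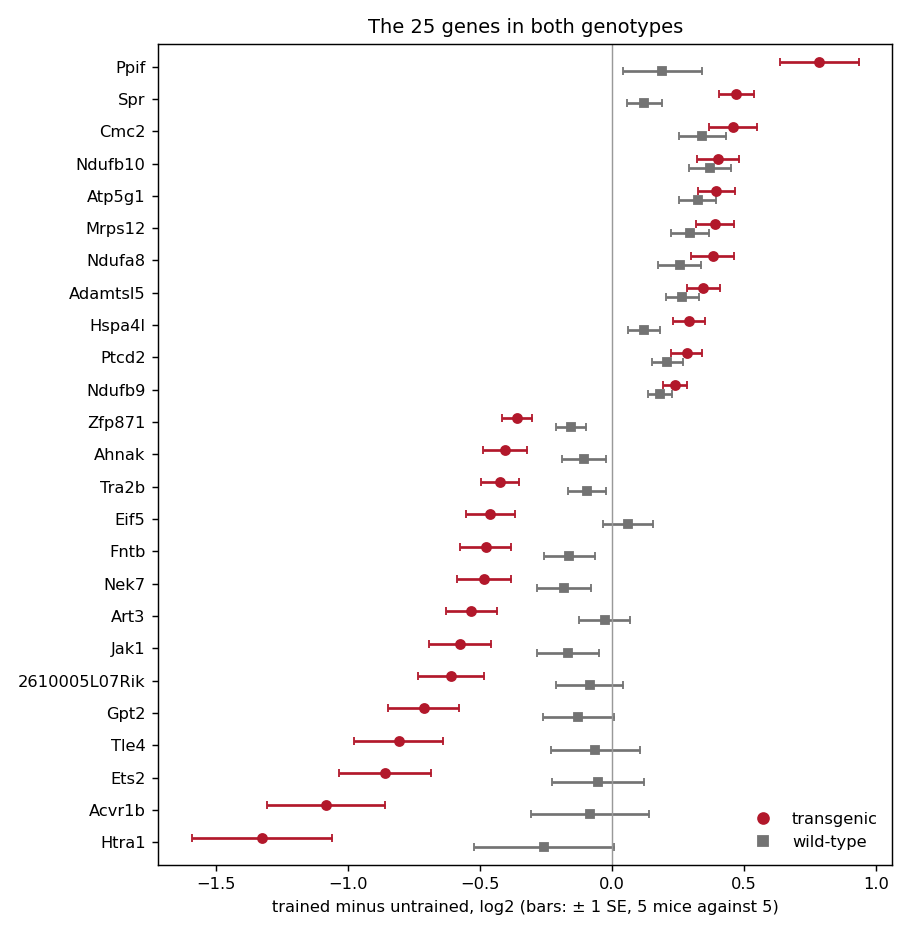
Points give the log2 difference, trained minus untrained, of the 25 called genes in transgenic (red circles) and wild-type mice (grey squares), with bars of ± 1 SE and 5 mice against 5. Respiratory chain genes such as Ndufb10 lie together in both genotypes, while Htra1 lies at -1.33 in transgenic and -0.26 in wild-type mice. The genes were chosen in transgenic mice. No difference between genotypes was called, Htra1 included (limma interaction, adjusted p = 0.9999).

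The order of the 4 group means differed between the directions. In 13 of the 14 genes that fell, untrained transgenic mice had the highest mean of the 4 groups, and in all 14 trained transgenic mice had the lowest. Htra1, for example, averaged 809 in wild-type mice without and 676 with training, between the transgenic means of 1769 and 617. In the 11 genes that rose, untrained transgenic mice had the lowest mean in all 11 and trained transgenic mice the highest in 7. These orders are descriptions, since the genes were chosen for a difference between the transgenic groups. The 5 genes with the smallest interaction p were Lox, Serping1, Eif5, Tm7sf2 and Spr. Lox, which crosslinks collagen, differed by -0.63 ± 0.14 log2 in transgenic and 0.26 ± 0.14 in wild-type mice (interaction -0.89 ± 0.20). Serping1, the C1 inhibitor, differed by -0.33 ± 0.10 and 0.27 ± 0.10. Without TGUT-145 the transgenic differences of Lox (-0.75 ± 0.13, adjusted p = 0.00496) and Serping1 (-0.37 ± 0.11, adjusted p = 0.0476) were called. Eif5 stood at -0.46 ± 0.093 and 0.06 ± 0.093, Tm7sf2, a sterol reductase, at 0.20 ± 0.058 and -0.12 ± 0.061, and Spr at 0.47 ± 0.066 and 0.12 ± 0.066.

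Genes that respond to glucocorticoids had lower values in trained than in untrained transgenic mice, with none called over all 5 untrained mice. All 18 tested genes of the list were below 0, with a median of -0.71 log2 against 0.01 over all genes, and 16 had an unadjusted p under 0.05, against 9.27% of all genes in that direction. In 4 of them the groups did not overlap, against 1.73% of all genes in that direction. In wild-type mice the median was -0.068, with 10 of 18 below 0 and 0 at an unadjusted p under 0.05. Glul, glutamine synthetase, read 5196, 4559, 3239.5, 3960.3 and 3834 in the untrained mice and 2309.8, 2516, 2688, 2659 and 2647 in the trained mice, without overlap, a difference of -0.67 ± 0.15 log2, adjusted p = 0.0509. Errfi1, an inhibitor of EGF receptor signalling, read 2113, 1883, 775, 1027 and 1064 in the untrained mice and 388, 462, 476, 445 and 683 in the trained mice. These groups did not overlap either, and the difference was -1.29 ± 0.28 log2, adjusted p = 0.0509. Zbtb16, a zinc finger repressor, differed by -0.90 ± 0.21 log2, adjusted p = 0.0621, Fkbp5, a cochaperone of the glucocorticoid receptor, by -0.78 ± 0.26 log2, adjusted p = 0.133, and Tsc22d3 (Gilz) by -0.36 ± 0.10 log2, adjusted p = 0.0852.

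The calls in this list depend on TGUT-145. The mean level of the list, as deviation from the mean of the 10 mice, was 0.70, 0.67, 0.44 and 0.36 in TGUT-131, TGUT-139, TGUT-146 and TGUT-147, and -0.24 in TGUT-145, beside -0.54, -0.31, -0.27, -0.43 and -0.32 in the trained mice. TGUT-145 thus lay just outside the trained range and far from the other untrained mice. Without it the median was -0.82, and 13 of 18 genes were called lower, against 3.18% of all genes in that fit, among them Errfi1 (-1.46 ± 0.28, adjusted p = 0.00977), Glul (-0.75 ± 0.15, adjusted p = 0.0105), Fkbp5 (-0.98 ± 0.25, adjusted p = 0.0321), Zbtb16 (-1.02 ± 0.22, adjusted p = 0.0159) and Tsc22d3 (-0.42 ± 0.11, adjusted p = 0.029). Errfi1, Zbtb16, Fkbp5 and Tsc22d3 were named after their values were seen. The short palindrome ACANNNTGT, within the glucocorticoid receptor's site, was in 4 of 16 promoter windows of the list (25%, Glul, Lcn2, Map3k6 and Mt1) and in 6.9% of all windows. Among the called genes it was in 1 of 13 windows of those that fell (7.69%, Nek7). It was in 0 of 10 windows of those that rose. All windows are not a matched background, and no excess was tested.

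Most atrophy-associated genes had lower values in trained mice. Of 16 tested, 14 were below 0, 12 with an unadjusted p under 0.05 (9.27% of all genes in that direction), and the median was -0.73 log2 against -0.24 in wild-type mice; none was called. Some of its genes, such as Cdkn1a, Cebpd, Klf15, Mt1 and Mt2, also belong to other lists here. Cdkn1a, the cell cycle inhibitor p21 and a p53 target, read 3160.3, 3037, 655, 2781 and 1966 in the untrained mice and 549, 706, 868, 591 and 703 in the trained mice. TGUT-145 fell among the trained mice, the other 4 untrained mice were above all of them, and the difference was -1.51 ± 0.35 log2, adjusted p = 0.0561. Foxo3, a transcription factor that induces atrophy genes, differed by -0.72 ± 0.20 log2, adjusted p = 0.0839, and Fbxo32, the ubiquitin ligase atrogin-1, named after its value was seen, by -0.90 ± 0.43 log2, adjusted p = 0.283. In the mean level of the list TGUT-145, at -0.25, lay within the trained range of -0.47 to -0.20, and the other untrained mice lay between 0.26 and 0.64. Without TGUT-145 the median was -0.89 and 8 of 16 were called lower (3.18% of all genes), including Cdkn1a (-1.89 ± 0.27, adjusted p = 0.00269) and Foxo3 (-0.91 ± 0.18, adjusted p = 0.0109) but not Fbxo32 (-1.11 ± 0.44, adjusted p = 0.135). The p53 target list had a median of -0.47 with 8 of 10 below 0, while Phlda3, a p53-induced Akt inhibitor, differed by 0.50 ± 0.17 log2, adjusted p = 0.136.

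Proteasome subunits were all on the lower side. All 31 were below 0 in transgenic and in wild-type mice, with medians of -0.24 and -0.15 log2, and 20 and 5 had an unadjusted p under 0.05, against 9.27% and 2.89% of all genes in that direction; none was called. Psma2, a subunit of the core particle's outer ring, had the smallest p (-0.41 ± 0.11 log2, adjusted p = 0.0752). Without TGUT-145 the median was -0.27 and 3 of 31 were called lower, against 3.18% of all genes, Psma2 among them (-0.49 ± 0.10, adjusted p = 0.0159). The level of the list was 0.27, 0.29, -0.019, -0.21 and 0.24 in the untrained mice and -0.23, -0.11, -0.079, -0.14 and -0.022 in the trained mice, so that TGUT-146 lay within the trained range and TGUT-145 just above it. Of 21 autophagy genes 15 were below 0 with a median of -0.089, and none was called. Cytosolic ribosomal proteins had a median of -0.075 with 32 of 36 below 0; Rpl4 had the smallest p (-0.23 ± 0.049 log2, adjusted p = 0.0509) and was called lower without TGUT-145 (-0.24 ± 0.052, adjusted p = 0.0157). In that fit 2 of 36 cytosolic ribosome genes and 3 of 21 autophagy genes were called lower, against 3.18% of all genes.

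**Figure D3:**
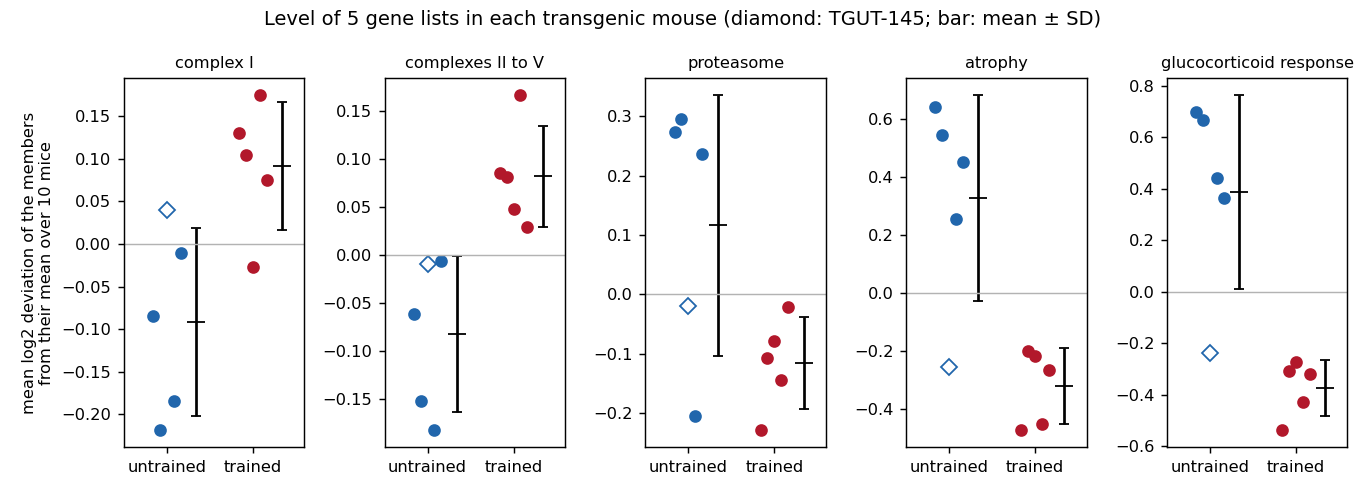
Each point is a transgenic mouse, and the vertical axis gives the mean log2 deviation of a list's members from their mean over the 10 mice; bars show the mean ± SD of 5 mice and the diamond is TGUT-145. In the glucocorticoid list 4 untrained mice lie between 0.36 and 0.70, while TGUT-145 at -0.24 lies next to the trained mice.

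**Figure D4:**
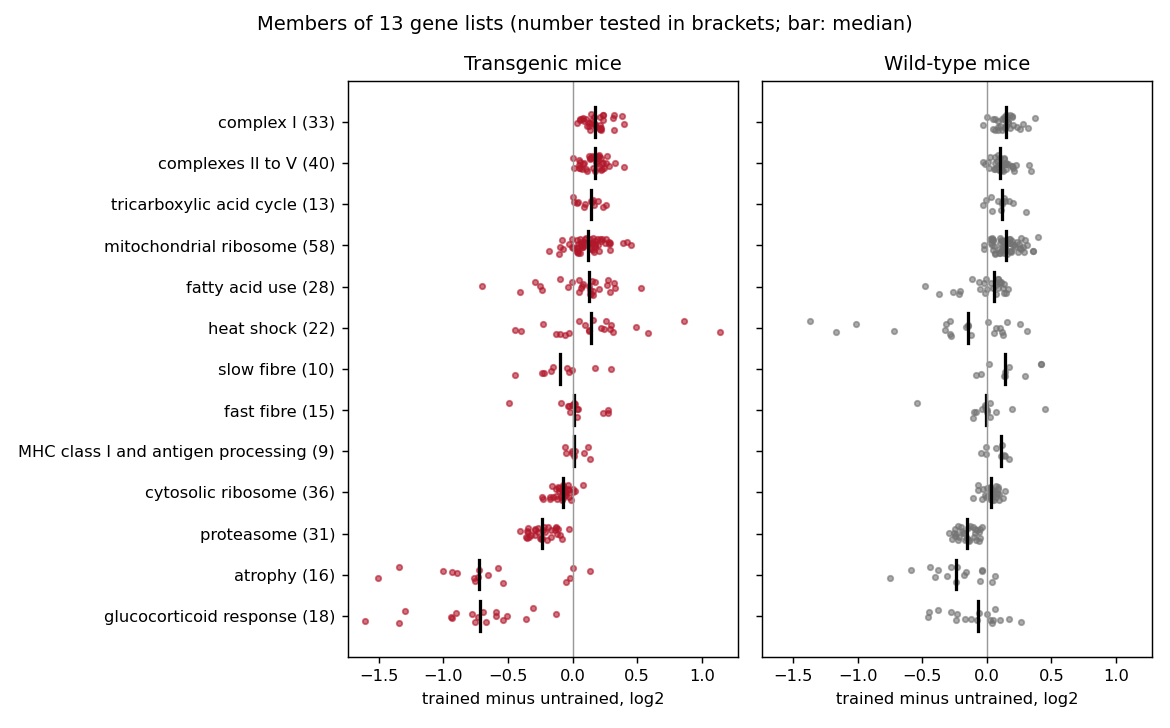
Each point is the log2 difference, trained minus untrained, of a member of 13 gene lists in transgenic (left) and wild-type mice (right), and black bars are medians. All 33 complex I members lie above 0 in transgenic mice and 32 of 33 in wild-type mice. The glucocorticoid list lies around -0.71 in transgenic and -0.068 in wild-type mice.

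No contractile gene was called with all 10 mice. In the fit without TGUT-145, 1 slow-fibre gene, Casq2, was called higher (2.2% of all genes) and 1 fast-fibre gene, Mylk2, lower (3.18%). Of 10 slow-fibre genes 8 were below 0 with a median of -0.097 log2, which moved to 0.0081 without TGUT-145, while the median of 15 fast-fibre genes was 0.01. The slow myosin Myh7 averaged 474 ± 202 in untrained and 395 ± 75.4 in trained mice and differed by -0.17 ± 0.37 log2, adjusted p = 0.88; its light chain Myl2 differed by -0.23 ± 0.39 log2, adjusted p = 0.833. The fast myosins Myh2, Myh1 and Myh4 differed by 0.27 ± 0.23, 0.24 ± 0.076 and 0.033 ± 0.034. Mylk2, the skeletal myosin light chain kinase, read 4416, 3609, 4077, 4302 and 5112 in the untrained mice and 2580.0, 3153, 3520.0, 2559.7 and 3445 in the trained mice, without overlap, and differed by -0.49 ± 0.11 log2, adjusted p = 0.0513, and without TGUT-145 by -0.51 ± 0.12, adjusted p = 0.0211. Casq2, a calcium-storing protein of slow fibres, differed by 0.29 ± 0.08 log2, adjusted p = 0.0788, and without TGUT-145 by 0.32 ± 0.085, adjusted p = 0.036. Sln, the calcium pump inhibitor sarcolipin, stood at -0.22 ± 0.20 log2, adjusted p = 0.651.

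Z-disc and stretch genes had a median of 0.13 log2, with 15 of 20 above 0 and none called. Without TGUT-145 the median was 0.20 and 2, Csrp3 and Cryab, were called higher, against 2.2% of all genes in that fit. Csrp3, the muscle LIM protein, read 939.7, 213, 747, 182 and 1724 in the untrained mice and 1798, 1699, 1107, 1379.7 and 2417 in the trained mice. The untrained mice ranged more than the trained mice, the groups overlapped, and the difference was 1.42 ± 0.40 log2, adjusted p = 0.0842, beside -0.10 ± 0.40 in wild-type mice. Without TGUT-145 it was 1.51 ± 0.43, adjusted p = 0.0476. Cryab, a small heat shock protein that binds desmin, read 5936, 4349, 6872, 4793 and 5154 in the untrained mice and 7910.0, 9481, 7383, 7286 and 8446 in the trained mice, with every trained mouse above every untrained mouse and a difference of 0.59 ± 0.15 log2, adjusted p = 0.0711, or 0.67 ± 0.15, adjusted p = 0.017 without TGUT-145. Of 22 heat shock genes 15 were above 0, with a median of 0.14, against -0.14 in wild-type mice, and none was called. Without TGUT-145 the median was 0.24 and 2 were called higher, against 2.2% of all genes in that fit.

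Class I antigen presentation gave no call. The 9 tested genes had a median of 0.008 log2 and a range of -0.055 to 0.14, and 0 had an unadjusted p under 0.05. H2-K1, a class I heavy chain, averaged 1069 ± 201 in untrained and 1067 ± 411 in trained mice and differed by -0.05 ± 0.22 log2, adjusted p = 0.943, H2-D1 by -0.055 ± 0.22 log2, adjusted p = 0.939, the light chain B2m by -0.0062 ± 0.18 log2, adjusted p = 0.992, and the immunoproteasome subunit Psmb8 by 0.022 ± 0.062 log2, adjusted p = 0.909. Under the 2 readings of MHC-I, the H2-K1 and H2-D1 means of untrained transgenic and untrained wild-type mice differed by less than either group's SD. The Myh7 mean was lower in untrained transgenic than in untrained wild-type mice. H2-K1 averaged 1102 ± 307 and H2-D1 1322 ± 361 in untrained wild-type mice, beside 1324 ± 287 for H2-D1 in untrained transgenic mice. Myh7 averaged 1254 ± 928 in untrained wild-type mice, above the 474 of untrained transgenic mice. These values do not show the over-expression that the title states; whether these probe sets read the transgene is not in the labels, and the genotype difference was not tested here. The endoplasmic reticulum chaperone Hspa5 stood at -0.09 ± 0.12 log2, adjusted p = 0.773, and the unfolded protein response list at a median of -0.0094 with 0 of 29 called. In the fit without TGUT-145, 3 of the 29 were called lower, against 3.18% of all genes.

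Fuel and signalling genes outside the respiratory chain varied more between mice. Pdk4, the kinase that inactivates pyruvate dehydrogenase, read 10441, 9543, 3494, 7176 and 8348 in the untrained mice and 1867, 6151, 4093, 3349 and 4823 in the trained mice. TGUT-145 fell among the trained mice and TGT-132 and TGT-143 were the highest trained mice. The difference was -0.94 ± 0.30 log2, adjusted p = 0.111, and without TGUT-145 it was -1.21 ± 0.26, adjusted p = 0.0172. Dlat, a pyruvate dehydrogenase subunit, differed by 0.47 ± 0.15 log2, adjusted p = 0.109, and Ucp3, a mitochondrial carrier of muscle, by -0.70 ± 0.22 log2, adjusted p = 0.105. Tfrc, the transferrin receptor, differed by 1.02 ± 0.40 log2, adjusted p = 0.193, Alas1, the first enzyme of heme synthesis, by 0.35 ± 0.10 log2, adjusted p = 0.0875, and Atp1b1, a sodium pump subunit, by 0.78 ± 0.21 log2, adjusted p = 0.0801. Ampd3, an AMP deaminase, had the lowest value of its list at -1.63 ± 0.53 log2, adjusted p = 0.119. Vegfa, the vascular growth factor, differed by 0.13 ± 0.069 log2, adjusted p = 0.359 and Vegfb by 0.38 ± 0.10 log2, adjusted p = 0.0716. Without TGUT-145 Dlat (0.58 ± 0.14, adjusted p = 0.0222), Atp1b1 (0.86 ± 0.22, adjusted p = 0.0317) and Vegfb (0.45 ± 0.093, adjusted p = 0.0134) were called higher. In that fit Ucp3 (-0.90 ± 0.19, adjusted p = 0.0157) and Ampd3 (-1.98 ± 0.52, adjusted p = 0.0322) were called lower, and Tfrc, Alas1 and Vegfa were not called.

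No clock gene was called with all 10 mice. In the fit without TGUT-145, 2 of 13 were called lower, against 3.18% of all genes, Arntl among them (-1.10 ± 0.29, adjusted p = 0.0334). Arntl, the clock activator Bmal1, averaged 249 ± 68 in untrained and 97.2 ± 39.2 in trained mice (SD, n = 5), with overlapping groups, and differed by -0.94 ± 0.29 log2, adjusted p = 0.101. Dbp, a clock output gene, differed by 0.94 ± 0.45 log2, adjusted p = 0.283, Per1 by -0.12 ± 0.14 log2, adjusted p = 0.727 and Nr1d1 by -0.26 ± 0.12 log2, adjusted p = 0.273. The time of day at which muscle was taken is not in the labels, and its part in these values and in those of the glucocorticoid list was not tested.

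Summed markers of other cell types overlapped between the groups. Summed adipocyte markers ran from 16346 to 22322 in untrained and from 12933 to 34177 in trained mice. The mean level of the adipocyte list was 1.06 in TGT-133, beside -0.78 to 0.41 in the other trained mice. The endothelial sum ran from 3158 to 3928 and from 3066 to 3568, the macrophage sum from 2672 to 3181 and from 2626 to 3575, and the fibroblast sum from 6742 to 8599 and from 6440 to 8963. T cell markers were dim, with 5 of 12 passing the filter, and Cd3e averaged 113.8 in untrained and 123.7 in trained mice. None of the marker genes was called with all 10 mice. The endothelial tight junction gene Cldn5 differed by -0.77 ± 0.20 log2, adjusted p = 0.0716 without overlap, the fibroblast proteoglycan Dcn by -0.35 ± 0.14 log2, adjusted p = 0.194, Col3a1, a fibrillar collagen, by 0.88 ± 0.39 log2, adjusted p = 0.253 and Ighm, an immunoglobulin chain, by -0.44 ± 0.19 log2, adjusted p = 0.236. Smtn, a smooth muscle protein, differed by 0.60 ± 0.16 log2, adjusted p = 0.0788, and Ttn, the giant sarcomeric titin of the muscle list, by -0.16 ± 0.041 log2, adjusted p = 0.0716. Sums of the smooth muscle list ran from 9938 to 11462 in untrained and from 10586 to 11582 in trained mice. Des averaged 8408 in untrained and 8750 in trained mice and made up most of that sum. It is also in the skeletal muscle list, so the sum says little about smooth muscle. Without TGUT-145 Smtn was called higher (0.77 ± 0.13, adjusted p = 0.00455), and Cldn5 (-0.89 ± 0.20, adjusted p = 0.0192) and Ttn (-0.16 ± 0.044, adjusted p = 0.038) lower. In bulk muscle, fewer cells of a type and less RNA per cell cannot be told apart, and the part of these markers in the results above was not tested.

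The number of calls rests on single mice. Leaving out a mouse gave 764 called probe sets without TGUT-145 and 278 without TGUT-146. It gave 50 without TGT-133, 7 without TGT-132, 6 without TGT-143 and 3 without TGUT-147. It gave 2 without TGT-128, TGT-140, TGUT-131 or TGUT-139. Of the 25 genes, each was called in at least 2 of the 10 fits, Zfp871 in 5 and Spr in 10, and each kept its direction in all 10. In Htra1 the difference ran from -1.57 to -1.19 log2 over these fits, in Acvr1b from -1.29 to -0.91, in Ppif from 0.70 to 0.88 and in Ndufb9 from 0.21 to 0.28.

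**Figure D5:**
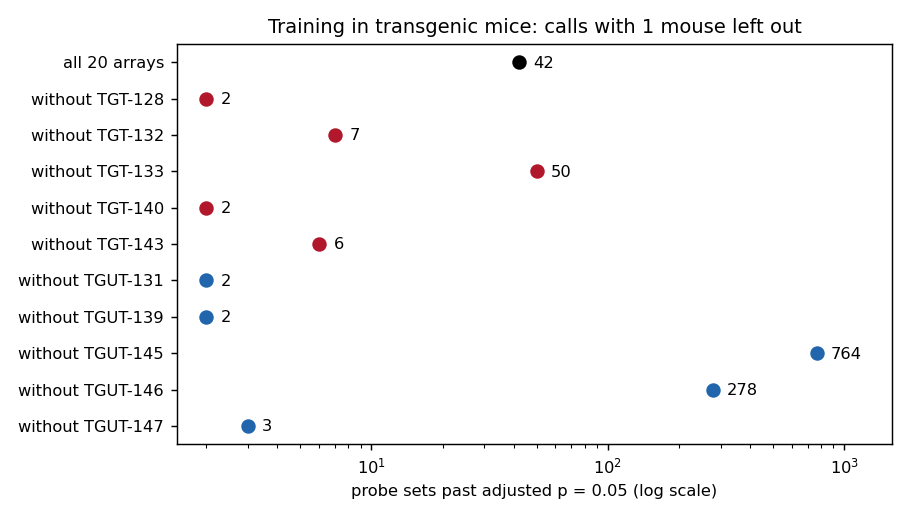
The horizontal axis, on a log scale, gives the number of probe sets past an adjusted p of 0.05 for training in transgenic mice, with all arrays and with each transgenic mouse left out. The count runs from 2 to 764, and the highest value is the fit without TGUT-145.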

How the data were processed

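Biotin-labelled total RNA of skeletal muscle from 20 mice, per the labels, was measured on 20 Affymetrix arrays. Each deposited value is a linear-scale intensity of 1 probe set; the authors' summary method, scaling and genome build are not stated in the sources used here. Of 22690 probe sets, 64 controls were left out. Of the rest 20380 carry 1 gene symbol in the platform annotation, 691 several and 1555 none, and 20351 symbols matched the RefSeq gene table. A constant of 66.7, the table's 20th percentile, was added before taking log2. Probe sets with a mean above the 40th percentile (log2 7.59) over all 20 arrays, blind to group, were tested: 13575, with 426 holding an empty cell on a transgenic array, which was treated as missing. For arrays, their number limits the precision. The test was limma (version 3.58.1, R 4.3.3), fitted to 4 group means in 1 model over all 20 arrays and a variance trend (16 residual and 3.47 prior degrees of freedom), two-sided, with Benjamini-Hochberg adjustment over all tested probe sets. A gene is read by its brightest tested probe set with 1 symbol. The comparison and the 47 gene lists were chosen with earlier results of these data known. Genes were named by rule: up to 15 called genes in each direction, up to 3 called members a list in each direction (or, where none was called, the higher and the lower member with the smallest p), the 5 smallest interaction p-values, and a list of 30 genes always given; others are marked as chosen after their values were seen. On simulated data with 200 of 13575 probe sets changed, 5 against 5, 41.8% of the 0.3 log2 changes, 80% of the 0.5 log2 changes and 96.4% of the 1 log2 changes were called, and 4.55% of calls were false. The simulated noise was normal, independent between probe sets and of equal spread in the 4 groups. It held no distant mouse such as TGUT-145, so these rates need not hold for the real arrays. The alternatives were quantile normalization, median centring, other constants and filters, variance settings, array weights, a Gapdh covariate, and each transgenic array left out. The fits without wtt-137, and the wild-type counts, were added after seeing the data. Of the planned fits, the one without TGUT-145 was singled out for fuller reporting after seeing the data too.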

Additional observations from a re-analysis of the deposited data

Results flagged for a closer look

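Values were looked at again where 1 of 5 mice of a group stood far from the others by Dixon's ratio. Of 126 groups tested (the 25 called genes, the level of 35 gene lists and 3 array readings, each in trained and untrained transgenic mice), 7 had such a mouse, and chance flags about 1 group in 20. Among trained mice, TGT-132 was high in Hspa4l (log2 level 7.91 against 7.77 to 7.81 in the others). TGT-133 was low in Ets2 (8.72 against 8.97 to 8.99), and TGT-128 low in Zfp871 (7.98 against 8.13 to 8.19); in both genes the distant mouse lay farther from the untrained mice. The level of the circadian clock list stood at 0.27 in the untrained mouse TGUT-146, against -0.0035 to 0.059 in the others, and at -0.16 in the trained mouse TGT-132, against -0.081 to -0.059. The creatine kinase and adenylate list stood at -0.092 in TGT-133, against -0.023 to -0.0067. TGT-133 also had 386 empty cells, against 8 to 21 in the other trained mice. No probe set was called for the difference between genotypes, so none is listed here for that reason.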

How the results depend on the processing

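The 42 calls (18 higher, 24 lower) moved with nearly every setting. Quantile normalization gave 148 (91 higher, 57 lower), centring on array medians 11 (2 and 9) and an added constant of 1 gave 69. No filter gave 6 and filtering at percentile 60 gave 99. A fit to the transgenic arrays alone gave 1, a lower probe set. No variance trend gave 65, robust variance 67 and the Gapdh covariate 371. Probe sets without an empty cell gave 72, and those that bind 1 transcript 2. Array weights gave 2466 (999 higher and 1467 lower), with 7 for the interaction and 92 for training in wild-type mice, the only settings in which those comparisons gave calls. Without the trained wild-type array wtt-137, which has the most empty cells of the wild-type arrays, the count was 234, and without wtt-137 and TGT-133 it was 125, both chosen after seeing the data. Leaving out each transgenic mouse gave 2 to 764; the cause of these shifts was not tested. Probe sets whose groups do not overlap numbered 425 (151 higher, 274 lower), 463 under quantile normalization (243 and 220), 360 after centring (94 and 266) and 479 to 993 with a mouse left out. No paired analysis was possible because the groups share no replicate number. Of the named genes' values under the alternatives, 2452 kept their direction and side of the threshold, 260 lost and 168 gained a call, and 35 changed sign, in genes called neither with nor without the alternative. List medians moved by less than the spread between mice in 869 of 875 cases. The medians of complex I (0.15 to 0.21), complexes II to V (0.14 to 0.19), the proteasome (-0.32 to -0.18), the atrophy list (-0.89 to -0.63) and the glucocorticoid list (-0.85 to -0.60) kept their sign in all 25 alternatives. Dim probe sets limit the reading: a gene below the filter was not tested.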

Other observations

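A few lists outside the comparisons above held values of interest. Musk, the kinase that organises the neuromuscular junction, averaged 489 ± 189 in untrained and 203 ± 25.9 in trained mice and differed by -0.98 ± 0.36 log2, adjusted p = 0.171; without TGUT-145 it was -1.18 ± 0.37, adjusted p = 0.0633. Hif1a, the oxygen-regulated factor, stood at 237 ± 50.8 in untrained and 154 ± 11.3 in trained mice without overlap (-0.45 ± 0.11 log2, adjusted p = 0.0698), and Zfp36, which destabilises short-lived messages, at 1036 ± 180 in untrained and 548 ± 80.2 in trained mice, also without overlap (-0.84 ± 0.21 log2, adjusted p = 0.0711). Eif4ebp1, a translation inhibitor downstream of mTOR, differed by -0.77 ± 0.24 log2, adjusted p = 0.108. Sod2, the mitochondrial superoxide dismutase, differed by 0.29 ± 0.075 log2, adjusted p = 0.0716, and Ckmt2, mitochondrial creatine kinase, by 0.34 ± 0.089 log2, adjusted p = 0.0716. None of these was called with all 5 untrained mice. Without TGUT-145 Hif1a (-0.51 ± 0.11, adjusted p = 0.0182), Zfp36 (-0.89 ± 0.22, adjusted p = 0.0282) and Eif4ebp1 (-0.96 ± 0.22, adjusted p = 0.0184) were called lower, and Sod2 (0.33 ± 0.076, adjusted p = 0.0211) and Ckmt2 (0.37 ± 0.094, adjusted p = 0.0301) higher.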
